A study of Mus musculus with 4 samples.

Results

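The nuclear genes of oxidative phosphorylation, the process by which mitochondria make most ATP, were taken by symbol from the count table: protein-coding genes whose GENCODE M21 names start with Nduf, Uqcr, Cox4, Cox5, Cox6, Cox7, Cox8 or Atp5, together with Sdha, Sdhb, Sdhc, Sdhd and Cyc1. The rule found 95 of the 55471 genes in the table and used no measured value. They were sorted by known role into 36 subunits of complex I, 4 of complex II, 9 of complex III, 11 of complex IV and 16 of complex V, plus 8 tissue isoforms, 10 assembly or associated factors and 1 read-through gene. Ndufa4 was placed in complex IV, where the protein is found, despite its name.

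Oxidative phosphorylation turns the energy of nutrients into ATP at the inner mitochondrial membrane. Complex I takes electrons from NADH and complex II takes them from succinate, and both pass them through ubiquinone to complex III, cytochrome c and complex IV, which hands them to oxygen. Complexes I, III and IV pump protons across that membrane, and complex V, the ATP synthase, lets the protons flow back through its Fo part and makes ATP in its F1 part. Most subunits are encoded in the nucleus and imported, a few are encoded by mitochondrial DNA, and some nuclear subunits exist as a ubiquitous form and a form restricted to certain tissues.

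The 4 libraries were made from cells that carried CD11b, the integrin chain encoded by Itgam that marks microglia and other myeloid cells, and that were pulled from mouse brain with magnetic beads. All 4 belong to 1 group. The mice, 10 to 13 weeks old, were given PLX5622, which blocks CSF1R, a receptor kinase that microglia need, for 7 days and were then kept off the drug for 10 days, so that the labels record a time of 17 days. The strain is not given in the labels. No untreated group was analysed here, so levels and their spread between libraries are described and nothing is said of an effect of the drug. Cells that outlived the drug and cells that returned after it cannot be told apart in these RNA pools, nor can fewer cells of a type be told from less RNA per cell. The labels do not say whether the libraries came from separate animals, so a p-value here measures only the spread between 4 samples, which may be technical. Library numbers are the replicate numbers in the labels.

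The libraries held between 23036202 and 24487418 counts. Levels are counts per 1000000 counts (CPM) after scaling by the trimmed mean of M values, and a floor of 3 counts corresponds to between 0.119 and 0.132 CPM, which covers counting error only. All 18 genes of a homeostatic microglia list were detected, and Itgam itself had 471, 501, 642 and 512 CPM in libraries 1 to 4. Markers of other cells moved between libraries. The 8 choroid plexus genes summed to 12050, 11400, 2306 and 15860 CPM, the 8 endothelial genes to 791, 810, 191 and 698 CPM, the 9 pericyte and smooth muscle genes to 687, 645, 101 and 445 CPM, and the 5 erythroid genes to 365, 174, 32.5 and 65.8 CPM. Library 3 was the lowest in all of these sums, library 1 was the highest in the pericyte and the erythroid sum, and no marker of these lists was at 0.

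The oxidative phosphorylation genes were broadly expressed. Of the 95, 88 were detected, meaning that they had at least 1 CPM in every library. The 7 that were not are the c-ring gene Atp5g2, the tissue isoforms Cox4i2, Cox7a1, Cox8b, Cox7b2 and Cox8c, and the read-through gene, which the annotation also names Atp5o and which overlaps part of the true Atp5o. Together the 95 genes made up 0.645%, 0.449%, 0.438% and 0.495% of all counts in libraries 1 to 4. Their summed level was 6425, 4463, 4550 and 4806 CPM, so library 1 stood above the other 3 and those lay close together.

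Nuclear subunits are thought to be kept in step partly through transcription factors that bind near their start sites, among them NRF1, the ETS factor GABPA, YY1 and the oestrogen-related receptor ERRA. The RefSeq promoter table (GRCm38.p6) held windows of 300 bases, from 250 before to 50 after the start, for 74 of the 95 genes. Both strands were searched for fixed letters. The NRF1 palindrome, GCGC and TGCGC joined by an A, lay in 7 of the 74 windows (9.46%), against 1.07% of the windows of all 27025 genes in the table. Its looser form, with any base N in place of the A, includes the first and lay in 19 (25.7%), against 5.19%. The ETS letters CCGGAAG lay in 18 (24.3%), against 9.93%, the YY1 letters AAGATGGC in 10 (13.5%), against 3.19%, and the ERRA letters TCAAGGTCA in 2 (2.7%), against 0.466%. None of the 4 tissue isoforms with a window held any of these. Base composition was not matched, and a match of letters is a description, not a site.

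The 250 bases before the RefSeq start are printed for 5 genes to which the results below return: Atp5e, the 1 gene past the test of spread between libraries, Sdha, which hardly varied, Cox6a1, and the pair Cox6b1 and Cox6b2, the ubiquitous and the testis form of one subunit. Capitals mark the NRF1 and ETS letters on either strand, CTTCCGG being the ETS letters read on the other strand. The genome positions of the windows, all on the minus strand, are chr2:174464102-174464351 for Atp5e, chr13:74350241-74350490 for Sdha, chr5:115348959-115349208 for Cox6a1, chr7:30626115-30626364 for Cox6b1 and chr7:4753095-4753344 for Cox6b2.
Atp5e: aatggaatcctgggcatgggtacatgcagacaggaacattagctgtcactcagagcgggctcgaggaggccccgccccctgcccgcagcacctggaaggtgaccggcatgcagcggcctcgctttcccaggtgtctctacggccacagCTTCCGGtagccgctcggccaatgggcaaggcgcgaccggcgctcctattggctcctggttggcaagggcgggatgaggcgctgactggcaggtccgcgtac
Sdha: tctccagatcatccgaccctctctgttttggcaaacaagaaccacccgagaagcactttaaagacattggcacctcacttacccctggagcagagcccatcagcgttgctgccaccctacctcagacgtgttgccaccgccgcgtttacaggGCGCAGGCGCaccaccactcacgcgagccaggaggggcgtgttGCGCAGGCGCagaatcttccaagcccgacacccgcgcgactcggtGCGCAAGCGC
Cox6a1: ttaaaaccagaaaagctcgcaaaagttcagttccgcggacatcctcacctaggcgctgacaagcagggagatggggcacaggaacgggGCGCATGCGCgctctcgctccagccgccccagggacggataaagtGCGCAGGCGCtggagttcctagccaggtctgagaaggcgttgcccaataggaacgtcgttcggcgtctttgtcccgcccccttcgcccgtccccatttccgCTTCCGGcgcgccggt
Cox6b1: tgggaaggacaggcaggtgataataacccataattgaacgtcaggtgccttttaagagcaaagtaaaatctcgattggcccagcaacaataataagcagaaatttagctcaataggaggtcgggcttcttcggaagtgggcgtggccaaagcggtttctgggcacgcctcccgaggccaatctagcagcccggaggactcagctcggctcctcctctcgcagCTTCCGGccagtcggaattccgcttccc
Cox6b2: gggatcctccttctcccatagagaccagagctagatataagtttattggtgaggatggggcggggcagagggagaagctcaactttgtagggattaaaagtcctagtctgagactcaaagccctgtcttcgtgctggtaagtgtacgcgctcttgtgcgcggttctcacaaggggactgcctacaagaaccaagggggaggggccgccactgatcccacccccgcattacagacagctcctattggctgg
The Atp5e and Cox6b1 stretches each hold the ETS letters, Cox6a1 holds the ETS letters and both forms of the NRF1 letters, Sdha holds the looser NRF1 letters at 3 places, and Cox6b2 holds none of them. Nothing about binding of a factor follows from this.

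The first question is how much RNA was found for the nuclear subunits of each complex, which is not the amount of the complex itself. Because a long transcript yields more fragments than a short one, levels of different genes are compared as CPM per kilobase of exon (CPM/kb), with all annotated exons of a gene counted in its length. Subunits of all 5 complexes lay well above the typical gene. The median subunit stood at 47.3 CPM/kb in complex IV, 43.8 in complex II, 33.3 in complex III, 29.6 in complex V and 22.1 in complex I, while the median of the 12836 protein-coding genes tested was 5.76 CPM/kb. The 10 assembly and associated factors had a median of 6.25 CPM/kb and the 8 tissue isoforms one of 2.62 CPM/kb. In 17 of the 95 genes less than 80% of the 50-base words of the longest coding transcript were found in no other annotated gene on either strand. These had a median of 15.3 CPM/kb, against 24.1 for the other 78.

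Relative to complex V on the log2 scale, the median of complex IV was higher by 0.74 ± 0.18, that of complex II by 0.55 ± 0.18 and that of complex III by 0.35 ± 0.20, while complex I gave −0.30 ± 0.09 (SD, n = 4 each). Each gap had the same sign in all 4 libraries, but the sizes rest on the length and on the members counted. An exact two-sided sign-flip permutation test gave p = 0.125 for each, which is the smallest p that 4 libraries allow, also after Benjamini-Hochberg adjustment over the 4 gaps. When the longest coding transcript replaced the union of exons, the gap turned to −0.13 for complex II and −0.35 for complex III, while complex IV gave 0.15 and complex I −0.85. With detected members only, which drops Atp5g2 from complex V, the gaps were 0.44 for complex IV, 0.25 for complex II, 0.04 for complex III and −0.61 for complex I.

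**Figure D1:**
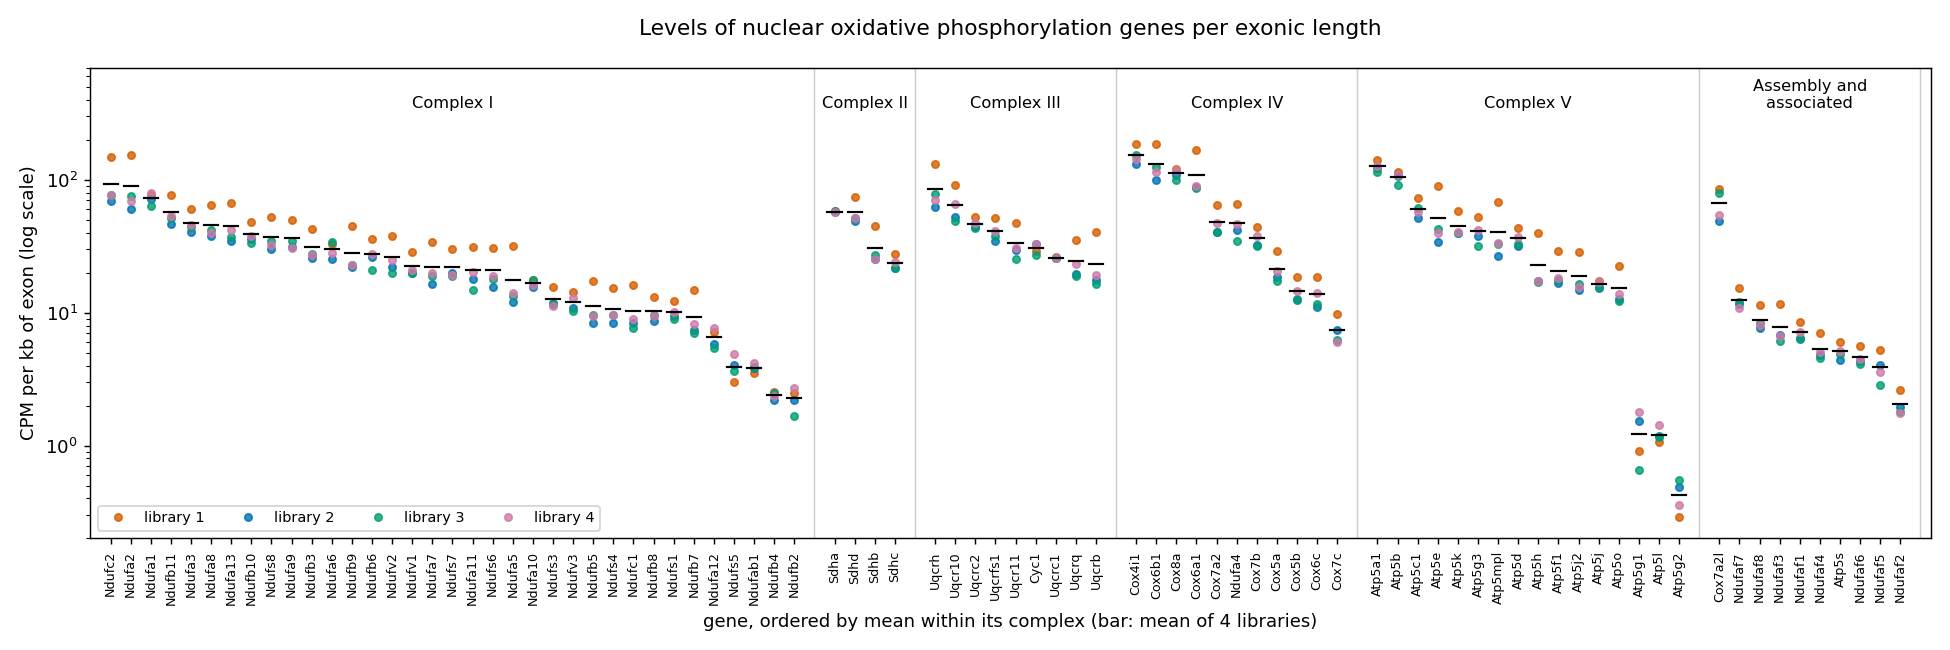
CPM per kilobase of exon (log axis) of the subunits, assembly and associated factors reported here in each of the 4 libraries, with a bar at the mean. Genes are ordered by mean within their complex. Library 1 is the topmost point for most genes, and Atp5g1, Atp5l and Atp5g2 lie far below the other subunits of complex V.

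Complex I is the largest of the 5. Its core on the nuclear side is 7 subunits that carry the flavin and the iron-sulfur clusters or line the ubiquinone site, and all 7 were detected. Ndufs1, an iron-sulfur subunit of the electron input arm, had 98.4, 76.5, 72.4 and 81.8 CPM and the lowest core level, 10.2 ± 1.41 CPM/kb (SD, n = 4), although per kilobase of the longest coding transcript it had 30.9 and Ndufs3 was the lowest at 26.2. Each of the 7 was highest in library 1, as were 34.2% of all 14112 genes tested.

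Ndufv1, which binds NADH and the flavin, had 75.3, 52.8, 52.5 and 55.1 CPM, and its partner Ndufv2 had 81.7, 47.6, 42.4 and 54.0 CPM. Ndufs8 had 67.5, 39.0, 45.0 and 41.4 CPM, Ndufs7, which holds the last cluster before ubiquinone, had 51.7, 34.1, 32.4 and 33.3 CPM, and Ndufs3 had 34.1, 25.6, 25.5 and 24.5 CPM. In each of them library 1 was the highest. Only 60.3% of the Ndufs3 sequence is unique in this sense, so its level may be touched by how reads with several matches were treated.

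The 29 accessory subunits of complex I surround the core. They ran from 92.8 CPM/kb for Ndufc2 to 2.27 CPM/kb for Ndufb2, both of the membrane arm. Ndufc2 had 112, 52.5, 58.1 and 57.8 CPM, so library 1 was 1.99-fold the mean of the others, while Ndufb2 had 14.0, 12.4, 9.33 and 15.4 CPM and was highest in library 4. Ndufab1, the mitochondrial acyl carrier protein, and Ndufa10 hardly moved, with 24.2, 26.3, 26.9 and 28.7 CPM for Ndufab1 and 58.5, 51.9, 58.3 and 54.3 CPM for Ndufa10. Ndufb4 was as even at 4.81, 4.23, 4.76 and 4.53 CPM, but 63.0% of its sequence is unique to it.

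In 9 accessory subunits the highest library exceeded the lowest by more than 2-fold, which 22% of all tested genes did, and in all 9 the highest was library 1. Ndufa2, a subunit of the electron input arm, had 87.4, 34.5, 43.5 and 39.8 CPM, and Ndufa5 had 32.6, 12.4, 13.8 and 14.6 CPM. The other 7, Ndufa7, Ndufa11, Ndufb5, Ndufb7, Ndufb9, Ndufc1 and Ndufc2, had ratios of highest to lowest between 2.05 and 2.13. Without library 1 no subunit of complex I spread over more than 2-fold, while 2372 of all 14112 tested genes did.

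Complex II is the succinate dehydrogenase of the citric acid cycle and has no subunit encoded in mitochondria. Sdha, its flavoprotein, on chromosome 13 at 74322254 to 74350280, had 240, 236, 241 and 236 CPM. This is a coefficient of variation (SD over mean) of 1.16%, and only Uqcrc1 of complex III was more even among the detected genes of the system. Its partners did not share this. Sdhb, the iron-sulfur subunit, had 100, 57.3, 61.2 and 56.7 CPM, and the membrane anchor Sdhd had 92.2, 60.2, 64.0 and 64.1 CPM. The other anchor, Sdhc, had 89.95, 70.7, 70.7 and 78.8 CPM, so in all 3 partners library 1 was the highest. Per kilobase, Sdha stood at 57.7 ± 0.667 CPM/kb, Sdhd at 57.0 ± 12.0, Sdhb at 30.7 ± 9.34 and Sdhc at 23.9 ± 2.80 (SD, n = 4 each), so Sdha and Sdhd did not differ beyond their spread on this length. Per kilobase of the longest coding transcript Sdha had 82.1 ± 0.949 and Sdhd had 57.0 ± 12.0 (SD, n = 4 each), a gap that was not tested.

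Complex III passes electrons to cytochrome c. Its scaffold subunits Uqcrc1 and Uqcrc2 were even between libraries, with 109, 106, 107 and 108 CPM for Uqcrc1 and 133, 112, 112 and 120 CPM for Uqcrc2. Cyc1, which carries the haem of cytochrome c1, had 62.9, 70.6, 58.8 and 71.5 CPM and was the 1 subunit of the complex whose highest library was not library 1. Uqcrfs1, the Rieske iron-sulfur protein, had 70.6, 47.2, 51.2 and 55.8 CPM.

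The 5 small subunits of complex III had coefficients of variation of 28.7% to 49.0%, against 1.12% to 18.2% for the 4 described above. Uqcrh, the acidic hinge protein, had 162, 77.8, 96.5 and 87.8 CPM and the highest level of the complex, 85.7 ± 30.7 CPM/kb. Uqcrb had 35.5, 15.4, 14.3 and 16.9 CPM and the lowest level, 23.4 ± 11.5 CPM/kb, and 56.6% of its sequence is unique to it. Per kilobase of the longest coding transcript Uqcrb had 38.4 and Uqcrq was the lowest at 29.3. In both Uqcrh and Uqcrb library 1 was more than 2-fold the lowest library, and the other 3 libraries lay within a narrow band. Uqcr10, Uqcr11 and Uqcrq had ratios of highest to lowest of 1.87, 1.86 and 1.84.

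Complex IV, cytochrome c oxidase, reduces oxygen. Cox4i1, on chromosome 8 at 120668222 to 120674207, is the ubiquitous form of its largest nuclear subunit and had the highest level per kilobase of the 95 nuclear genes, 154 ± 23.0 CPM/kb, from 288, 205, 240 and 224 CPM. Cox6b1 with 131 ± 37.4 CPM/kb, Cox8a with 112 ± 9.66 and Cox6a1 with 109 ± 39.6 followed within complex IV (SD, n = 4 each). Their SDs overlapped, but an SD over libraries does not pair genes within a library. Cox6b1 had 131, 70.8, 88.1 and 81.2 CPM on 708 exonic bases. Cox6a1 had 118, 62.4, 61.1 and 63.6 CPM on 702 bases, so Cox6b1 was higher in every library. These gaps were not tested. Cox7c was the lowest at 7.36 ± 1.76 CPM/kb, from 11.1, 8.34, 7.04 and 6.79 CPM, with 72.1% of its sequence unique. Cox5a and Cox5b, subunits that sit on the matrix side, had 61.5, 39.1, 36.3 and 43.1 CPM for Cox5a and 29.4, 19.96, 20.3 and 23.1 CPM for Cox5b. Cox6c, Cox7a2, Cox7b and Ndufa4 lay between 13.9 CPM/kb for Cox6c and 48.4 CPM/kb for Cox7a2, an order that the longest coding transcript changes to 44.2 for Cox7b up to 107 for Ndufa4. All 11 subunits of complex IV were highest in library 1.

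Complex V holds the genes with the widest range of levels. Its F1 head is built from Atp5a1 and Atp5b, which form the catalytic ring, and from the rotor subunits Atp5c1, Atp5d and Atp5e. Atp5a1 had 444, 388, 361 and 399 CPM, which is 127 ± 11 CPM/kb, and Atp5b had 483, 452, 391 and 461 CPM, which is 105 ± 9.33 CPM/kb (SD, n = 4 each). Both were highest in library 1 and lowest in library 3, though the ratio was at most 1.24. Atp5c1 had 139, 98.7, 116 and 109 CPM and Atp5d had 83.2, 61.2, 64.0 and 71.5 CPM, so these rotor subunits were also highest in library 1. Over the 5 F1 genes the median was 60.7 CPM/kb, and over the 11 genes of Fo and the stalks it was 18.9 CPM/kb.

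Atp5e, the smallest F1 subunit, at chromosome 2, 174461072 to 174464105, was the 1 gene of the system whose spread between libraries passed the test. It had 159, 59.5, 75.6 and 69.7 CPM, so that library 1 was 2.33-fold the mean of the others and every one of those lay below 76 CPM. The test asks whether a gene scatters between the 4 libraries more than genes of its level do. In edgeR it sets the misfit of a negative binomial model with 1 mean against a chi-square, over 14112 genes, and Atp5e had a Benjamini-Hochberg adjusted p of 0.0176. With all 4 libraries the test calls 463 of the 14112 genes (3.28%), so 1 call among the 89 members tested is a share no greater than that of all genes. The call rests on library 1, as the adjusted p without it is 1. It is also lost without library 2 (0.132) or library 4 (0.0650), and is 0.00221 without library 3. The quasi-likelihood test in edgeR, which also allows genes to scatter around their trend, gave Atp5e an adjusted p of 0.889 and called none of the members and none of all genes (0%).

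The Fo part and the stalks span the membrane and join it to the head. Atp5h, the d subunit of the peripheral stalk, had 58.3, 25.4, 24.9 and 25.3 CPM, and Atp5mpl, a small proteolipid of the membrane part, had 82.5, 32.6, 40.2 and 40.9 CPM. Library 1 again stood alone above 3 libraries close together, and in Atp5h those 3 differ by less than 1 CPM. The adjusted p was 0.147 for Atp5h and 0.113 for Atp5mpl in edgeR. Among the alternatives run, only leaving out library 3 made both pass, at 0.0341 and 0.0220, together with Ndufa2 at 0.0117, while all 4 libraries gave 0.0852 for Ndufa2. Without library 3 the test called 4 members and 106 of all genes, against 1 member and 463 of all genes with all 4 libraries. Atp5h is 52.1% unique in sequence. Atp5f1, Atp5j, Atp5j2, Atp5k and Atp5o, also of the stalks or the membrane part, had levels from 15.3 CPM/kb for Atp5o to 44.7 CPM/kb for Atp5k, and all 5 were highest in library 1. Of the Atp5o sequence 49.7% is unique, and 35.6% of its exonic bases overlap a gene on the other strand.

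The c ring of Fo turns as protons pass. It is encoded by 3 genes, Atp5g1, Atp5g2 and Atp5g3, whose mature proteins are identical and whose import signals differ. Atp5g3 carried nearly all of this RNA, with 115, 82.5, 69.5 and 91.9 CPM. Atp5g1 had 4.45, 7.52, 3.21 and 8.77 CPM, and Atp5g2, the lowest subunit of all, had 0.490, 0.821, 0.925 and 0.595 CPM. Per kilobase, Atp5g3 exceeded Atp5g1 by 58.3-, 24.7-, 48.7- and 23.6-fold in libraries 1 to 4 and Atp5g2 by 181-, 77.2-, 57.7- and 119-fold. Atp5g1 has 4912 exonic bases and Atp5g3 has 2181, so the size of their ratio rests partly on length. The minor pair did not follow the others, since Atp5g1 was highest in library 4 and Atp5g2 was highest in library 3 and lowest in library 1. Atp5l, the g subunit, had 6.81, 7.65, 7.44 and 9.21 CPM, but only 15.2% of its sequence is unique, so its low level of 1.21 ± 0.158 CPM/kb is uncertain.

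A second question is which form of a subunit had more RNA. In each of the 6 pairs of complex IV whose tissue form had counts, Ndufa4 and its relative Ndufa4l2 included, the ubiquitous form was higher in every library. Cox4i1 exceeded Cox4i2, the form of lung and of low oxygen, by 41.8-, 60.4-, 462- and 71.7-fold per kilobase. Cox6a1 exceeded Cox6a2, the heart and skeletal muscle form, by 100-, 51.8-, 29.2- and 55.5-fold, and Cox6b1 exceeded Cox6b2 by 27.6-, 14.9-, 68.1- and 12.9-fold. In 2 of these pairs library 3 gave the widest ratio, and in the Cox6a pair it gave the narrowest.

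Cox7a2 exceeded Cox7a1, another form of heart and skeletal muscle, by 12.5-, 14.4-, 124- and 13.1-fold. Cox8a exceeded Cox8b, also of muscle, by 8.67-, 17.5-, 117- and 16.4-fold, and Ndufa4 exceeded Ndufa4l2, which is induced by low oxygen, by 12.9-, 10.2-, 36.0- and 13.2-fold. For Cox7b2 and for Cox8c, a testis form, no count was found in any library. Against a floor of 3 counts per library, Cox7b was at least 130- to 196-fold above Cox7b2 and Cox8a at least 347- to 459-fold above Cox8c. Over the 6 pairs and the 2 of the c ring, the exact two-sided sign-flip permutation test gave p = 0.125 for each, and 0.125 after Benjamini-Hochberg adjustment over the 8 pairs, the smallest value that 4 libraries allow.

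The tissue forms themselves were low, but most of them moved together. Cox4i2 had 3.51, 1.73, 0.264 and 1.59 CPM, Cox7a1 had 2.77, 1.51, 0.176 and 1.95 CPM, and Cox8b had 5.02, 2.25, 0.308 and 2.62 CPM. Ndufa4l2 had 5.63, 4.49, 1.06 and 3.85 CPM and Cox6b2 had 7.43, 7.43, 2.03 and 9.88 CPM. All 5 were lowest in library 3, as were 29.2% of all tested genes, by 4.88-fold or more against their highest library. Cox6a2 did the opposite, with 1.14, 1.17, 2.03 and 1.11 CPM. The spread test in edgeR passed none of the 3 that it covered, with an adjusted p of 0.550 for Ndufa4l2, 0.429 for Cox6b2 and 1 for Cox6a2, while Cox6b2 had an unadjusted p of 0.0367 and the quasi-likelihood test also passed none. Cox4i2, Cox7a1 and Cox8b, with only 6, 4 and 7 counts in library 3, were removed by the filter on low counts. With every counted gene kept, their adjusted p was 0.197, 0.162 and 0.0948.

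The low level of these forms in library 3 stood beside a low level of the pericyte, endothelial, choroid plexus and erythroid markers given above. All 9 pericyte and smooth muscle genes, 8 of 8 choroid plexus genes, 7 of 8 endothelial genes and all 5 erythroid genes were lowest in library 3, against 29.2% of all tested genes. The pericyte and smooth muscle sum was between 445 and 687 CPM in libraries 1, 2 and 4 and 101 CPM in library 3. The part of these cells in the levels of Cox4i2, Cox7a1, Cox8b, Ndufa4l2 and Cox6b2 was not tested.

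**Figure D2:**
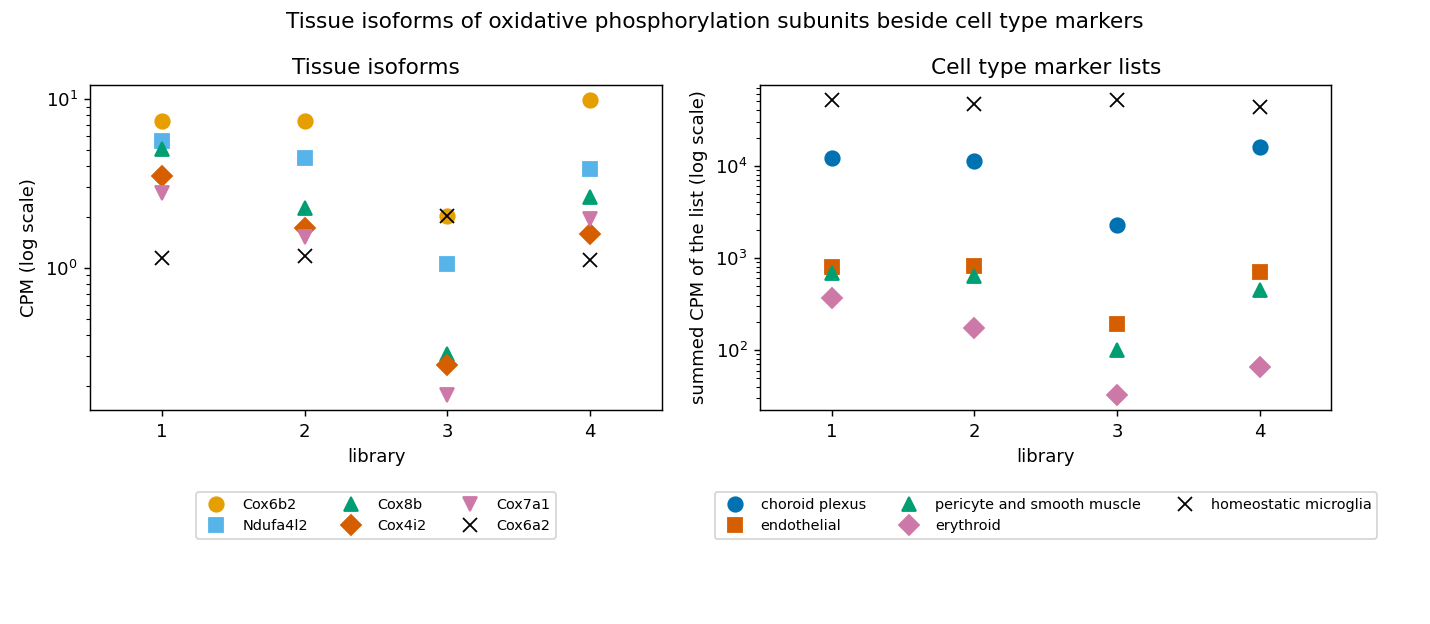
Left, CPM (log axis) of the 6 tissue isoforms with counts in libraries 1 to 4. Right, summed CPM (log axis) of marker lists of 5 cell types in the same libraries. Cox4i2, Cox7a1, Cox8b, Ndufa4l2 and Cox6b2 are lowest in library 3, as are the choroid plexus, endothelial, pericyte and erythroid sums, while Cox6a2 is highest there and the homeostatic microglia sum stays between 43020 and 52200 CPM.

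The third question is how the genes of the system varied between libraries as a group. Most were highest in library 1. Of the 89 members tested, 76 (85.4%) had their highest level in library 1, against 34.2% of all tested genes, 9 in library 4, 4 in library 3 and none in library 2. The median change in library 1 from a gene's own mean over the 4 libraries, on the log2(CPM + 0.5) scale, was 0.39 for the members and 0.03 for all tested genes. In libraries 2, 3 and 4 the members' medians were −0.17, −0.15 and −0.06, and those of all tested genes were 0.01 in each. The signs in libraries 2 and 4 turn positive under other scalings, with those of all genes moved alike, as given below. Library 1 was 1.44-fold the mean of the other libraries for the median member, against 1.01-fold for the median tested gene.

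All complexes took part. In library 1 the median change was 0.53 in complex III, 0.46 in complex I, 0.45 in complex IV, 0.33 in complex V, 0.32 in complex II and 0.36 among the assembly and associated factors. The summed level of the 36 complex I genes was 1956, 1239, 1299 and 1354 CPM, and that of the 11 complex IV genes was 987, 648, 681 and 720 CPM. For complex V the sum was 1925, 1431, 1378 and 1520 CPM, for complex III it was 721, 515, 519 and 561 CPM, and for complex II it was 522, 424, 437 and 435 CPM. The 4 subunits that were lowest in library 1 were Ndufab1, Ndufs5, Atp5l and Atp5g2.

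**Figure D3:**
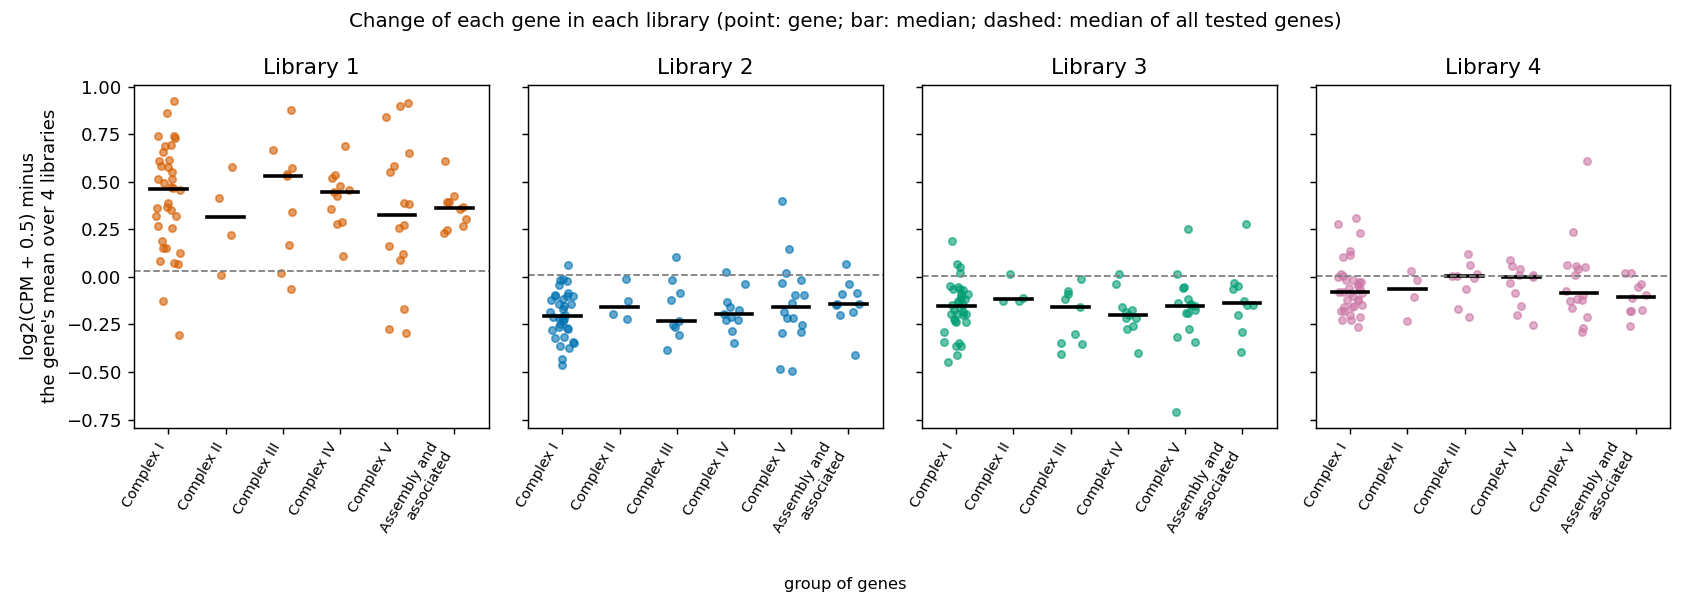
Log2(CPM + 0.5) of each tested gene minus its own mean over 4 libraries, by complex, in a panel per library. Points are genes, bars are medians and the dashed line is the median of all tested genes. In library 1 the medians lie between 0.32 and 0.53 and in libraries 2 and 3 all of them lie below 0, below the line for all genes too. Scaling to ribosomal protein genes moves the members' median in library 2 to 0.16 and that of all tested genes to 0.33.

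The size of this shift in single genes was modest for most. The highest library was over 2-fold the lowest in 17 of the 89 members (19.1%), against 22% of all tested genes, and library 1 was the highest in 15 of these 17. Without library 1, 3 of the tested members, Atp5g1, Cox6b2 and Ndufa4l2, spread over more than 2-fold, as did 2372 of all 14112 tested genes. The median coefficient of variation was 23.9% in the members and 16.02% in all tested genes, and without library 1 it was 8.09% in the members and 10.2% in all tested genes. At an unadjusted p under 0.05 the goodness of fit in edgeR took 13 of the 89 members, against 9.57% of all tested genes, and the quasi-likelihood test took 5, namely Atp5e, Atp5h, Atp5mpl, Ndufa2 and Ndufc2, against 4.66%. DESeq2 marked none of the members as a dispersion outlier, and only 9 of all genes.

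Library 1 also had the highest sum of other markers: 365 CPM for the 5 erythroid genes, against 32.5 to 174 CPM in the other libraries, and 852 CPM for 6 oligodendrocyte genes, against 379 to 587 CPM. All 5 erythroid and 5 of the 6 oligodendrocyte genes were highest there, none of them was at 0, and their part in the level of the oxidative phosphorylation genes was not tested.

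Scaling moves all genes of a library alike, so it changes the sign and size of a change but hardly the distance of the members from other genes. Scaled to the homeostatic microglial genes, the median change in library 1 was 0.28 for the members and −0.07 for all tested genes, and 67.4% of members (60) and 21.5% of all tested genes were highest there. In library 4 it was 0.10 for the members and 0.16 for all tested genes. Scaled to the cytosolic ribosomal protein genes, which are also short and abundant, the members' medians were 0.15, 0.16, −0.46 and 0.15 in libraries 1 to 4 and those of all tested genes were −0.20, 0.33, −0.29 and 0.21. On that scale 42.7% of members (38) and 7.53% of all tested genes were highest in library 1. The members' median minus that of all tested genes was between 0.35 and 0.36 in library 1 over the 5 scalings run. It was negative in libraries 2, 3 and 4 under each of them. That is partly set by the measure, since changes are taken from a gene's own mean over the 4 libraries. A high library 1 thus lowers the values of the others. The 80 ribosomal protein genes, which make the cytosolic ribosome, summed to 10570, 7028, 11100 and 7640 CPM, so they were high in library 1 and also in library 3, where the oxidative phosphorylation genes were not.

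Many of these genes have short transcripts, and the median change of other short protein-coding genes was also above 0 in library 1. The short members Ndufs5 and Atp5l were lowest there, but only 68.9% of the Ndufs5 sequence and 15.2% of the Atp5l sequence is unique. Their levels are therefore uncertain. Among members whose longest coding transcript had at most 875 bases, the members' median, the median change in library 1 was 0.47 (42 genes), against 0.38 for 346 other protein-coding genes in that range. Among members over 875 bases it was 0.32 (47 genes), against 0.03 for 12391 other protein-coding genes. Of the shorter genes, 83.3% of members and 69.9% of others were highest in library 1, and of the longer ones 87.2% of members and 33.4% of others. Lengths were not matched within either range, and the range over 875 bases has no upper limit, so members and others may differ in length there. Across genes, the change in library 1 had a Pearson correlation with log2 transcript length of −0.37 and a Spearman correlation of −0.35 in the 89 members, and of −0.43 and −0.45 in 12737 other protein-coding genes. These points share the same 4 libraries and are given as a description. The part of transcript length in the level of library 1 was not tested further, and RNA quality values were not analysed here.

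**Figure D4:**
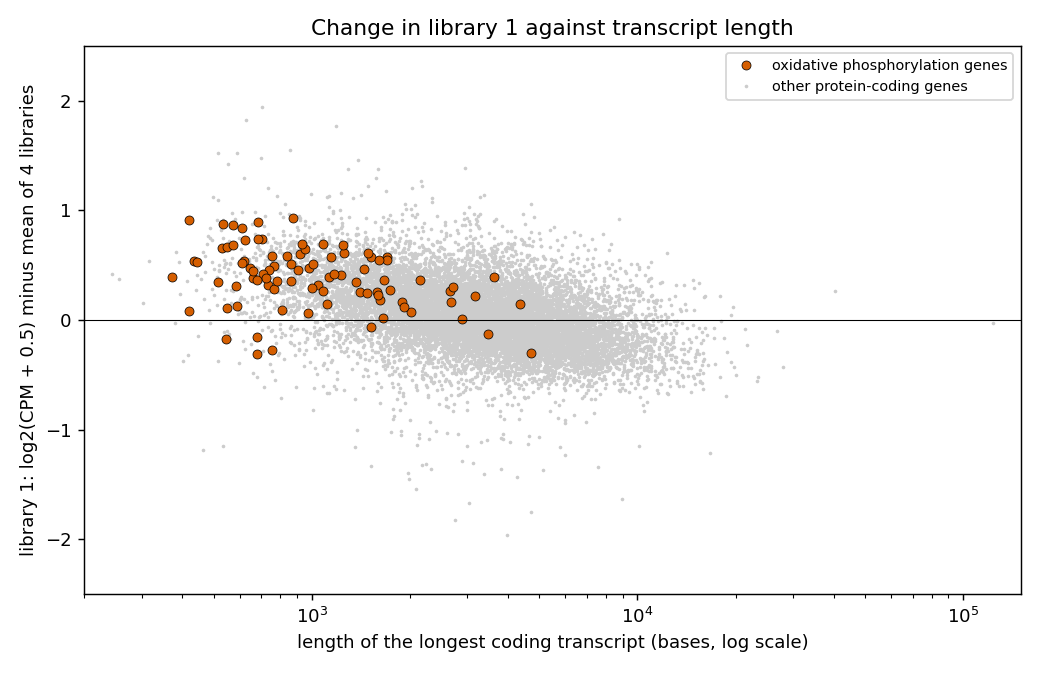
Change in library 1, as log2(CPM + 0.5) minus the gene's mean over 4 libraries, against the length of the longest coding transcript (log axis). Orange points are the 89 tested oxidative phosphorylation genes and grey points are 12737 other protein-coding genes. Short genes of both kinds lie mostly above 0, and the grey cloud falls with length.

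The 10 assembly and associated factors that the symbol rule takes followed the subunits, at a lower median level. Ndufaf1 to Ndufaf8 are proteins that help build complex I without remaining in it. Ndufaf7, a methyltransferase, was the highest of the 8 at 12.4 ± 1.93 CPM/kb and had 53.4, 40.6, 42.2 and 38.0 CPM. Ndufaf2 was the lowest at 2.04 ± 0.411 CPM/kb, although per kilobase of the longest coding transcript it had 8.97 and Ndufaf6 was the lowest at 5.27. Ndufaf2 had 7.87, 5.83, 5.37 and 5.24 CPM, and 65.7% of its exonic bases overlap a gene on the other strand. The other 6 had means between 5.71 CPM for Ndufaf6 and 20.98 CPM for Ndufaf4. Cox7a2l, which joins complexes III and IV into larger assemblies, had 127, 72.6, 117 and 80.7 CPM, so in this gene library 3 was high as well. All 10 assembly and associated factors were highest in library 1.

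Other genes of the pathway that the symbol rule leaves out were set beside these. Of 55 genes for assembly of complexes I to V, cytochrome c, carriers and transcriptional regulators, 54 were detected and tested, and Pet117 was listed at 0. The goodness of fit in edgeR called none of the 54, against 3.28% of all tested genes. It put 1, the coactivator gene Ppargc1a, at an unadjusted p under 0.05, against 9.57%. The quasi-likelihood test called none, against 0% of all tested genes, with none at an unadjusted p under 0.05, against 4.66%. Library 1 was the highest in 28 of the 54, against 34.2% of all tested genes. The median change in library 1 was 0.03 for these assembly genes of complex I, 0.34 for complex II and 0.19 for complex III. It was 0.20 for complex IV and 0.17 for complex V, against 0.03 for all tested genes. Cycs, which encodes cytochrome c, had 4.81, 2.29, 2.29 and 2.74 CPM, and Slc25a3, which brings phosphate into the matrix, had 330, 335, 358 and 336 CPM. The exchangers of ADP and ATP, Slc25a4 and Slc25a5, had 124 ± 19.8 and 105 ± 11.8 CPM (SD, n = 4 each). The regulators whose letters were searched above were even, with 38.1, 40.4, 42.8 and 37.8 CPM for Nrf1, 74.3, 70.6, 76.1 and 71.9 CPM for Gabpa, 117, 127, 133 and 123 CPM for Yy1 and 47.7, 48.9, 50.5 and 52.5 CPM for Esrra. The median change of the 11 regulators was −0.06 in library 1, against 0.39 for the oxidative phosphorylation genes.

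The subunits encoded by mitochondrial DNA had their lowest summed level in library 1. Of these 13 genes, 7 had counts, and mt-Nd3, mt-Nd4l, mt-Co2, mt-Co3, mt-Atp6 and mt-Atp8 were listed at 0 in every library, although mt-Cytb and mt-Co1 averaged 3526 and 3446 CPM, so their 0 is not read as a level. The 7 summed to 10180, 13630, 13590 and 14930 CPM, and 5 of them were lowest in library 1. The others were mt-Nd6, with 12.1, 6.22, 13.9 and 5.44 CPM, and mt-Co1, with 3223, 3170, 3649 and 3740 CPM. mt-Nd4, a proton-pumping subunit of complex I, had 497, 1225, 1227 and 1316 CPM and an adjusted p of 0.0277 in the goodness of fit of edgeR, the 1 mitochondrial gene past the threshold. That call is lost without library 1 (1), library 2 (0.0737) or library 4 (0.0854), with no filter on low counts (0.0564) and in the quasi-likelihood test (0.889), where the values are adjusted p in edgeR. The summed CPM of mitochondrial over nuclear subunits was 1.67, 3.20, 3.15 and 3.25 in libraries 1 to 4.

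**Figure D5:**
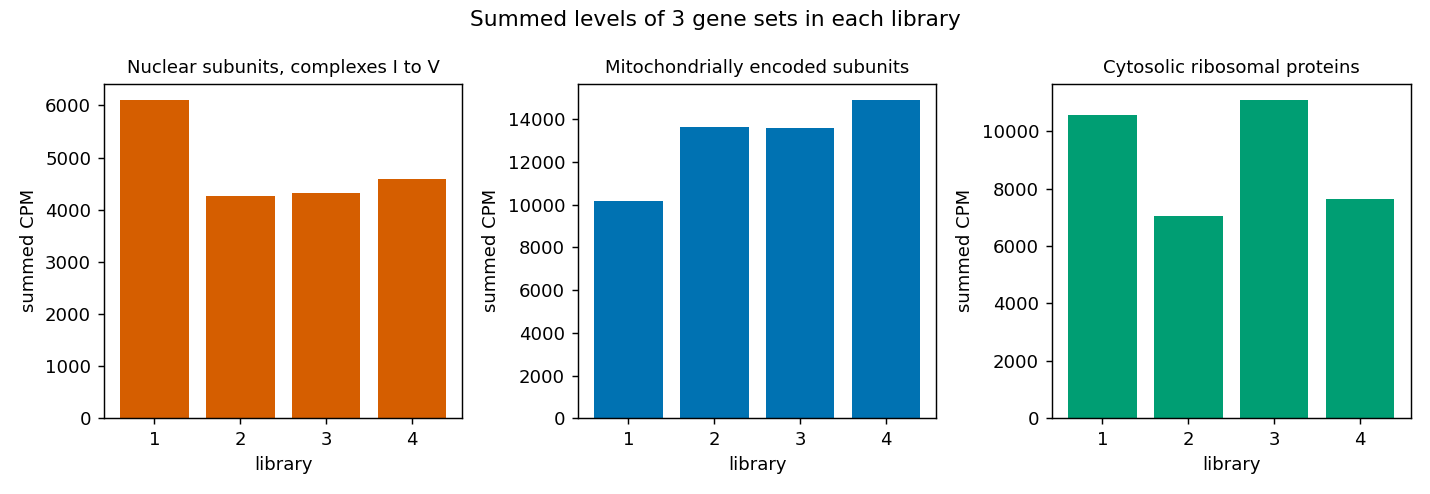
Summed CPM of the 76 nuclear subunits of complexes I to V, of the mitochondrially encoded subunits with counts and of 80 cytosolic ribosomal protein genes, with 1 bar per library and axes from 0. Library 1 has the highest nuclear sum (6112 CPM, against 4257 to 4589) and the lowest mitochondrial sum, while the ribosomal sum is high in libraries 1 and 3.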

How the data were processed

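Per the labels' protocols, 300 ng of total RNA per library went through poly(A) selection and a strand-marking kit. The authors deposited raw counts per Ensembl gene. With GRCm38, the submitters' processing notes name featureCounts (1.6.5), STAR (2.7.2b) and bcl2fastq (2.20.0.422). Which annotation release and strand setting they took, and how reads with several matches were handled, is not given in the sources used here, so genes with close copies or antisense partners are uncertain. No row was a total and 0 columns stayed unmapped. Of 55471 identifiers, 55230 matched GENCODE M21, which gave symbols, coordinates and lengths, and the others held at most 0.00526% of a library.

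CPM were computed with trimmed mean of M values factors (edgeR 4.0.16, R 4.3.3). The spread test set the residual deviance of an intercept-only negative binomial fit with trended dispersion against the chi-square with 3 degrees of freedom, for 14112 genes kept by filterByExpr (89 of 95 members), with Benjamini-Hochberg adjustment. Log2 values carry a pseudocount of 0.5, except isoform ratios, which have none. Uniqueness is the share of 50-base words of a gene's longest coding transcript found in no annotated transcript of another gene, on either strand. An overlapping gene on the other strand therefore lowers it too. On simulated counts for these 14112 genes, the spread test found 2 of 50 genes raised 2-fold in 1 library, 39 of 50 raised 4-fold, 1 of 50 lowered 2-fold and 18 of 50 lowered 4-fold, with 1 false call among 13912. Those counts were drawn with the trended dispersion that the test itself assumes. No simulated gene scattered around its trend, so these rates need not hold for the real counts.

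Members, gene lists and tests were chosen with earlier results of these data known. Text names members past the test, extremes of each complex, isoform pairs, catalytic and core subunits, the 5 most and least dispersed, those under 1 CPM, assembly factors and those over 2-fold. The 5 promoters printed were chosen after values were seen. Coa1, an assembly factor, was not matched by symbol. The values of 1 member are not reported here, though it stays in counts and medians. Alternatives were DESeq2 1.42.0 size factors and dispersion outliers, total counts, no filter, another length, another pseudocount, and each library left out.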

Additional observations from a re-analysis of the deposited data

Results flagged for a closer look

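For each member that the naming rule covers and each group median, the highest or lowest library was set against the others as the gap to its nearest neighbour divided by the whole range. A value above Dixon's 95% limit for 4 samples marks 1 library as standing apart. Chance alone would mark about 1 in 20 of groups not chosen for their spread, and 25 of 96 values passed. This share cannot be read against chance, since many of the genes are named because they were past the test, most dispersed or over 2-fold, and all values come from the same 4 libraries.

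Of the 19 genes marked, 18 had library 1 alone at the top. In complex V these were Atp5h (0.987), Atp5e (0.838) and Atp5mpl (0.834). In complex I they were Ndufb9 (0.964), Ndufs7 (0.909), Ndufc2 (0.906), Ndufa5 (0.895), Ndufs3 (0.886), Ndufv1 (0.884), Ndufb5 (0.850), Ndufb7 (0.847), Ndufc1 (0.843) and Ndufa2 (0.831). In complexes II, III and IV they were Sdhb (0.897), Sdhd (0.880), Uqcrb (0.878) and Cox6a1 (0.955), and among the assembly factors Ndufaf3 (0.883). The remaining gene, Cox6a2, had library 3 alone at the top (0.940).

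The median change of a group was marked for the complex I core (0.864), complex V (0.846), its Fo and stalk genes (0.899) and the assembly and associated factors (0.924), all with library 1 at the top. It was also marked for the tissue isoforms (0.926) and the endothelial markers (0.858), both with library 3 at the bottom. The tissue isoform median covers only the 3 tested of 8, and 1 of these, Cox6a2, was highest in library 3.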

How the results depend on the processing

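No paired analysis was possible because the libraries form 1 group. Of the values that answer a comparison, 183 kept their direction and call, or stayed within the spread between libraries or 1.5 times a count, under an alternative, 23 moved and 5 reversed. A kept direction is no kept size. Some of the 183 could hardly have changed. Gaps between complexes and isoform ratios are taken within a library, so another scaling leaves them almost as they were. All subunits of complexes I to IV were detected, so counting detected members only left their medians alone. The count of members past the spread test was 1, and ranged from 0 to 4 with a library left out (4 without library 3), with 0 by the quasi-likelihood test and 0 DESeq2 dispersion outliers. For all genes it was 463, ranged from 106 to 425 with a library left out (106 without library 3), and was 0 by the quasi-likelihood test and 9 by DESeq2. With the longest coding transcript as length, log2 medians per kilobase were 5.12, 5.84, 5.62, 6.12 and 5.97 for complexes I to V, against 4.48, 5.33, 5.13, 5.52 and 4.78, and the gaps to complex V turned to −0.13 for complex II and −0.35 for complex III, with −0.85 for complex I and 0.15 for complex IV. With detected members only the gaps were −0.61, 0.25, 0.04 and 0.44 for complexes I to IV, against −0.30, 0.55, 0.35 and 0.74. Complex IV with its tissue isoforms counted in had 3.81.

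Scaled to homeostatic genes, the median change of members was 0.28 in library 1, −0.27 in library 3 and 0.10 in library 4. Scaled to ribosomal protein genes, a setting chosen after seeing the data, it was 0.15, 0.16, −0.46 and 0.15 in libraries 1 to 4, and 38 members were highest in library 1, against 76. With total counts 74 were, with DESeq2 size factors 72 and with homeostatic genes 60. The count of members over 2-fold ranged from 3 to 17 with a library left out. It was 3 without library 1, where 2372 of all 14112 tested genes were over 2-fold. A scaling shifts all genes of a library alike: the members' median minus that of all tested genes stayed between 0.35 and 0.36 in library 1. The causes of the other shifts were not tested. Depth limits the tissue isoforms, whose counts in library 3 were as low as 4.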
